A study of Mus musculus with 14 samples.

Results

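The genes described here are 10 genes of tumor necrosis factor (TNF) signaling and of the NF-kB response that follows it, measured in liver sinusoidal endothelial cells (LSECs). They are the ligands Tnf and Tnfsf10, the receptors Tnfrsf1a, Tnfrsf1b, Fas and Ltbr, the inhibitors Nfkbia and Tnfaip3, and the NF-kB subunits Nfkb2 and Relb. They were chosen by symbol, and the symbols matched 10 of the 54524 Ensembl genes in the count table by way of the GENCODE vM21 annotation. All 10 passed the filter on low counts that left 26626 genes for testing, and the lowest count of any of the 10 genes in any sample was 588.

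LSECs were sorted from the livers of male Balb/c mice, which the labels give as 10 to 12 weeks old and the methods of the study as slightly older. The healthy mice (n = 4) received no injection. The other mice received 1 intraperitoneal injection of carbon tetrachloride (CCl4), a solvent that injures hepatocytes, at 0.5 µL per g of body weight in mineral oil, and LSECs were collected after 1 day (n = 2), 3 days (n = 4) or 7 days (n = 4). No group analysed here received mineral oil alone, so the effect of CCl4 and that of the injection and its vehicle cannot be told apart. Cells were sorted as positive for CD32, the receptor encoded by Fcgr2b, and negative for F4/80, UV autofluorescence and propidium iodide, and the methods also name negative staining for the leukocyte antigen CD45. RNA was collected directly after the sort, without culture. The study left out 2 further samples of day 1 because of their RNA quality.

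TNF binds 2 receptors, TNFR1 (Tnfrsf1a), which carries a death domain, and TNFR2 (Tnfrsf1b), which does not. Both can lead to the release of NF-kB dimers from inhibitory IkB proteins. NF-kB then induces its own inhibitors, among them IkBα (Nfkbia), which binds the dimers again, and A20 (Tnfaip3), which edits ubiquitin chains on the receptor complex, so that the response limits itself. A second branch is started by receptors such as the lymphotoxin beta receptor (Ltbr) and leads to processing of p100 (Nfkb2) to p52, which pairs with RelB (Relb). Fas and TRAIL (Tnfsf10) belong to the death receptor side of the family. In the liver, TNF is known both as a signal that prepares hepatocytes for regeneration and as a mediator of injury, and endothelial cells answer it with adhesion molecules and chemokines.

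RefSeq promoter windows (GRCm38.p6) were given for 9 of the 10 genes, all but Relb, and reached from 250 bases before to 50 bases after each annotated transcription start. They were searched on both strands for the NF-kB consensus decamer, counting overlapping matches. Tnfaip3, Nfkbia and Nfkb2, 3 of these 9 genes, held a match, against 9.55% of all 27025 genes with a window and 8.46% of all 32851 windows. The 10 genes were chosen as genes of TNF signaling and NF-kB feedback, so their share is not independent of the motif. Nfkb2 had 3 windows and Tnfaip3 2, which gave these genes more places for a match. The windows of Tnf, Tnfrsf1a, Tnfrsf1b, Fas, Tnfsf10 and Ltbr held none, which says only that these letters are not in these windows. The 130 bases directly before the first RefSeq start of each of the 3 genes are shown because these genes encode the inhibitors that close the feedback and the precursor p100, and because they hold the matches, marked by capitals. In GENCODE vM21, Tnfaip3 (19000910 to 19015657) and Nfkb2 (46304320 to 46312385) begin further upstream. Their printed stretches therefore lie inside the genes of that annotation, while that of Nfkbia lies before its gene in both. Each sequence is printed on the strand of its gene.
Tnfaip3, chr10:19015411-19015540, minus strand: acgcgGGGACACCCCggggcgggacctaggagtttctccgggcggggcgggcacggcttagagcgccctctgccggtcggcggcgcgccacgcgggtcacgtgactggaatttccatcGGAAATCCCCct
Nfkbia, chr12:55492648-55492777, minus strand: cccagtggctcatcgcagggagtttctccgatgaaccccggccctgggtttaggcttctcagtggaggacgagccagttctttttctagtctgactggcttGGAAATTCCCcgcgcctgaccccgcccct
Nfkb2, chr19:46304607-46304736, plus strand: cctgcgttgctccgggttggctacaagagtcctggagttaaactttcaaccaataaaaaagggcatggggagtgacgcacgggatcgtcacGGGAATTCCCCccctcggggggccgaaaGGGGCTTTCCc

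In Tnfaip3 the matches lay from -125 to -116 and from -12 to -3, counted from the start. In Nfkbia a single match lay from -29 to -20. In Nfkb2 matches that overlap covered -39 to -29, and a further one lay from -11 to -2. The other annotated starts of Nfkb2 also had matches, from -236 to -227 and from 11 to 20 at the second start and from -225 to -216 at the third. The match at the third start and that from 11 to 20 at the second are the same bases, in windows that overlap. The second annotated start of Tnfaip3 had no match. A match is a description of the sequence, and binding of NF-kB was not measured.

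**Figure D1:**
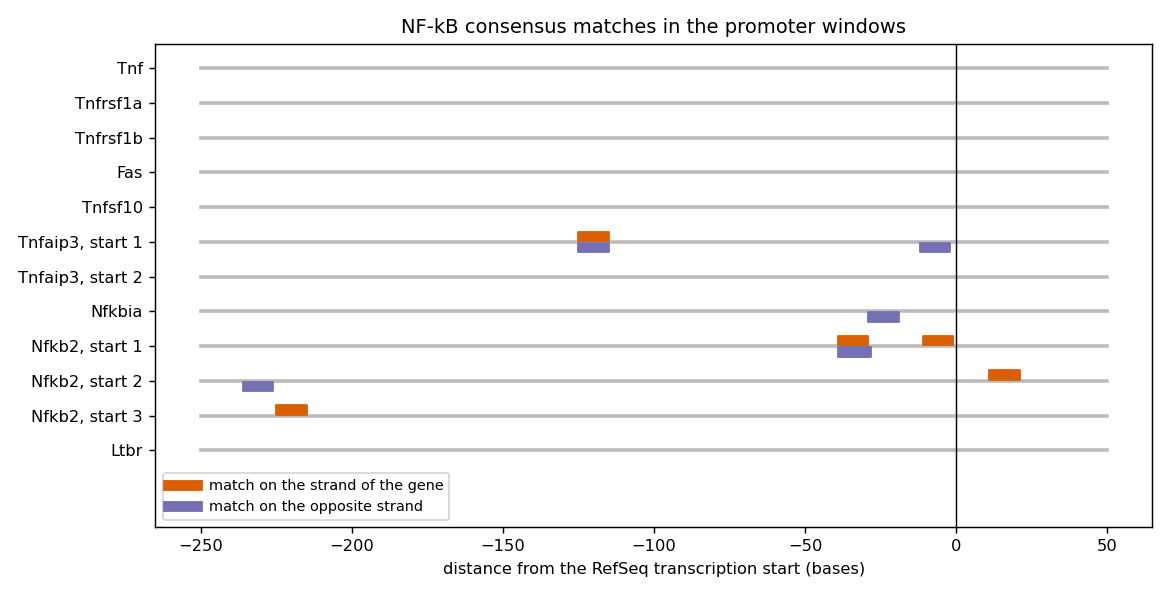
Position of NF-kB consensus matches (blocks) relative to each annotated RefSeq start (vertical line at 0, x axis in bases) in the windows of 9 genes, with blocks above the line on the strand of the gene and blocks below it on the opposite strand. Only Tnfaip3, Nfkbia and Nfkb2 have a block, and the first starts of all 3 have one within the last 40 bases before the start.

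The total count on genes ran from 46401496 in the shallowest sample to 103912264 in the deepest. Levels are CPM, which are gene counts scaled to a common library size, after TMM normalization, changes are log2 fold changes with their standard error (SE) from edgeR's quasi-likelihood test over all 14 samples, and a gene was called changed at a Benjamini-Hochberg adjusted p under 0.05 over all 26626 genes. All comparisons with healthy LSECs share the same 4 healthy mice. The endothelial markers Stab2 (947 to 2363 CPM) and Cdh5 (234 to 618 CPM) were detected in every sample. The sum of 12 LSEC markers was 18686 to 22831 CPM in healthy LSECs and 11379 to 16817 CPM after CCl4. It was thus lower in every sample after CCl4 than in every healthy sample. The single markers went both ways, with 2 of the 12 called higher and 2 lower at day 1, and 1 higher and 2 lower at day 3. At day 1, Lyve1 was at 3020 and 3397 CPM (healthy 271 to 534 CPM) and Cdh5 at 590 and 618 CPM (healthy 234 to 334 CPM). Fcgr2b, the gene of the sorted receptor, was at 1585 and 1798 CPM (healthy 2443 to 3397 CPM). The sum of 11 monocyte and neutrophil markers lay at 530.2 to 1433 CPM in healthy LSECs, at 8645 and 4519 CPM in replicates 1 and 2 of day 1, at 13436, 8159, 1520 and 1404 CPM in replicates 1 to 4 of day 3, and at 4222 to 9723 CPM at day 7. Of these markers, 5 of 11 were called higher at day 1, 5 at day 3 and 1 at day 7, and none of the 11 was called lower. The composition of the sum differed between days. At day 7 it consisted mostly of Lyz2, which encodes lysozyme and was the 1 marker called, at 3919 to 9304 CPM against 427 to 1200 CPM in healthy LSECs. The neutrophil genes S100a8 and S100a9 were at 28.9 to 45.8 and 46.5 to 90.0 CPM at day 7, near the highest healthy levels of 34.0 and 81.7 CPM, whereas at day 1 they were at 2140 and 736 CPM and at 3692 and 1595 CPM in replicates 1 and 2. The leukocyte gene Ptprc, which encodes CD45, had no call and lay at 36.9 to 109.6 CPM in healthy LSECs and at 46.7 to 269.6 CPM after CCl4. The sum of 10 immediate early genes, which cell isolation can induce, was 23997 to 26459 CPM in healthy LSECs and 12177 to 18132 CPM after CCl4. Replicate 4 of day 3 had the fewest detected genes, 22986 against 28203 to 34768 in the other replicates of day 3. Mitochondrial genes took 3.04 to 3.65% of the counts in healthy LSECs and more in every sample of day 7 (5.28 to 9.87%), while day 1 (3.51 and 4.49%) and day 3 (3.06 to 5.87%) overlapped the healthy range. The sum of 10 stellate cell markers was 141 to 266 CPM in healthy LSECs, 101 and 117 CPM at day 1, 593 to 1659 CPM at day 3 and 321 to 5096 CPM at day 7, and 8 of the 10 were called higher at day 3 and 9 at day 7. The part of these shares and sums in the changes of the 10 genes was not tested. In such bulk samples, fewer cells of a type and less RNA per cell cannot be told apart.

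In healthy LSECs, Nfkbia had the highest level per length, at 533 ± 172 CPM per kb of exon (SD, n = 4), followed by Tnfrsf1a at 147 ± 22.0, Ltbr at 81.2 ± 4.76, and Fas at 64.4 ± 11.5 CPM per kb. Tnfaip3 (21.6 ± 5.47), Tnf (20.0 ± 4.81) and Tnfsf10 (14.7 ± 2.55 CPM per kb) formed the middle of the order, and Nfkb2 (9.40 ± 0.41), Relb (9.15 ± 0.71) and Tnfrsf1b (4.42 ± 2.49 CPM per kb) were lowest. The ranges of Ltbr and Fas overlapped, as did those of Tnfaip3, Tnf and Tnfsf10 and those of Nfkb2 and Relb. Within each healthy sample Tnfaip3 stood above Tnfsf10, while the order within the other overlapping pairs changed between samples. Differences between the genes were not tested. TNFR1 transcripts thus stood far above TNFR2 transcripts in every healthy sample, with 128 CPM per kb as the lowest value of Tnfrsf1a and 6.78 as the highest of Tnfrsf1b. At day 3, Tnf was second in the order at 138 ± 44.2 CPM per kb (SD, n = 4), and its range overlapped that of Tnfrsf1a (118 ± 26.1 CPM per kb).

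At day 1, 2 of the 10 genes were called changed, Tnf higher and Tnfsf10 lower, where 4.06% of all genes tested were called. At day 3, 5 of the 10 were called, with Tnf, Tnfaip3 and Nfkbia higher and Fas and Tnfsf10 lower, where 7.19% of all genes were called. At day 7, Tnf alone of the 10 was called, and it was higher, where 3.18% of all genes were called. In a fit limited to genes with at least 10 counts in every sample, 1323, 2374 and 1133 of 16311 genes were called at days 1, 3 and 7. The median log2 fold change of the 10 genes was 0.30 at day 1, 0.58 at day 3 and 0.06 at day 7, beside -0.03, 0.18 and 0.02 over all genes tested. Tnfrsf1a, Tnfrsf1b, Ltbr, Nfkb2 and Relb had no call in any of the 5 comparisons made.

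**Figure D2:**
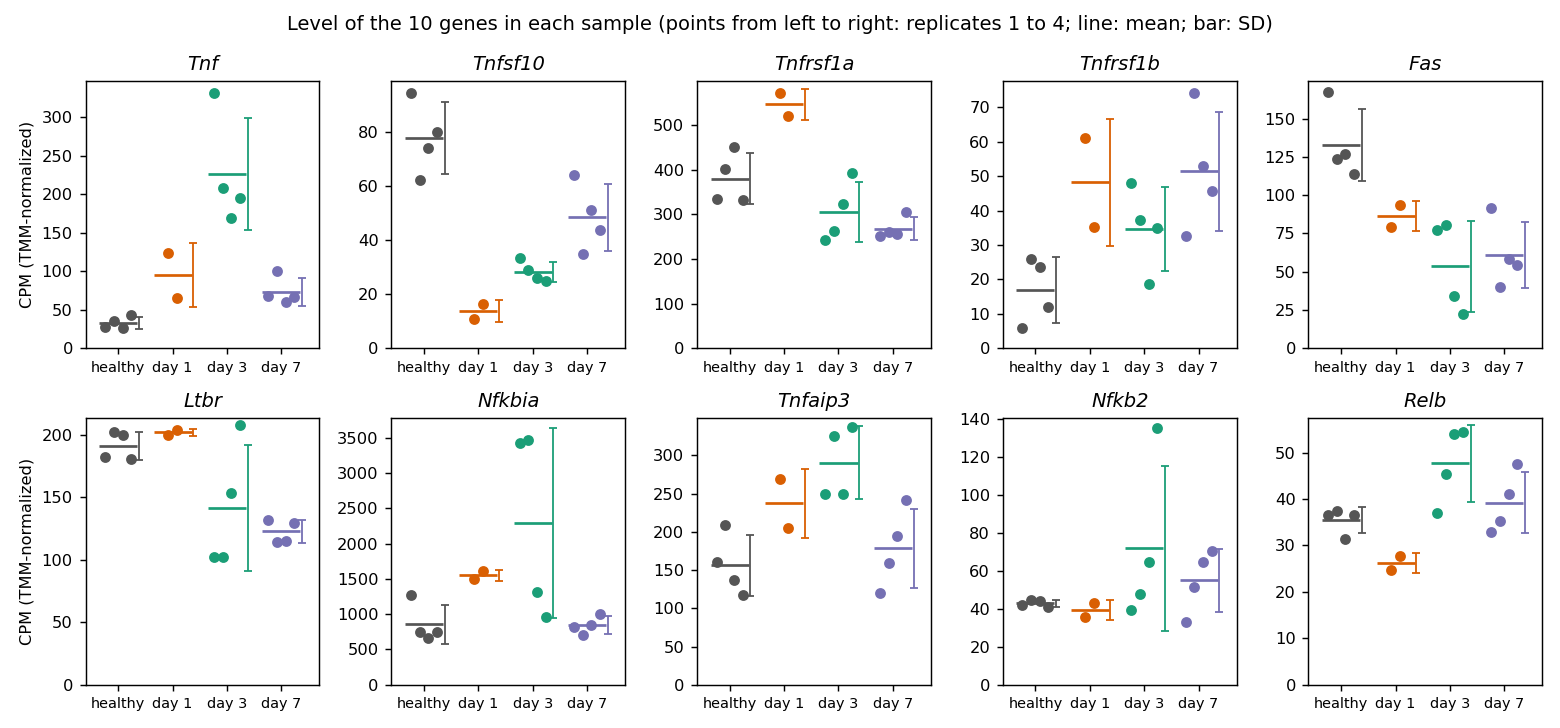
Level of each of the 10 genes in each sample (y axis, TMM-normalized CPM from 0; x axis, group; points from left to right are replicates 1 to 4, horizontal lines group means, vertical bars SD). Tnf lies above the healthy samples in all samples after CCl4 and is highest at day 3, Tnfsf10 is lowest at day 1, and Nfkbia at day 3 splits into 2 samples at 3419 and 3465 CPM and 2 at 1317 and 959.5 CPM.

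Tnf encodes the founding cytokine of the family. It lies on chromosome 17 (35199381 to 35202007, minus strand, GRCm38). Its level was 26.9, 35.6, 25.9 and 42.6 CPM in the healthy samples, 124 and 65.8 CPM at day 1, 332, 209, 169 and 195 CPM at day 3, and 67.2, 100.4, 60.4 and 66.0 CPM at day 7. All 10 samples after CCl4 were above all healthy samples, and all day 3 samples were above all samples of day 1 and of day 7. Tnf rose 2.90-fold at day 1 (log2 fold change 1.54, SE 0.32, adjusted p = 0.0154 in edgeR), 6.91-fold at day 3 (2.79, SE 0.29, adjusted p = 0.000607) and 2.25-fold at day 7 (1.17, SE 0.28, adjusted p = 0.0394). From day 3 to day 7 it fell 3.08-fold (log2 fold change -1.62, SE 0.28, adjusted p = 0.0140), in a comparison in which 1.77% of all genes were called. Between day 1 and day 3 the difference was 1.25 (SE 0.35) and had no call (adjusted p = 0.0843 in edgeR).

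The rise of Tnf at day 3 held when any single sample was left out. Without replicate 1 of day 1 the rise at day 1 had no call (log2 fold change 0.97, adjusted p = 0.530 in edgeR). That fit holds 1 sample of day 1, which is assumed to vary like the other groups, and its calls at day 1 over all genes were 164, against 1080 with both samples. The rise at day 7 had no call without replicate 1, 2 or 3 of the healthy group or replicate 2, 3 or 4 of day 7, with log2 fold changes of 0.98 to 1.28 and adjusted p of 0.0583 to 0.135. The fall from day 3 to day 7 had no call without replicate 1 of day 3 (-1.28, adjusted p = 0.0675) or without replicate 1, 3 or 4 of day 7 (-1.44, -1.39 and -1.42, adjusted p = 0.0683, 0.110 and 0.0963 in edgeR).

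The monocyte and neutrophil marker sum was also higher in most samples after CCl4, and monocytes are a known source of TNF. Replicates 3 and 4 of day 3, whose marker sums of 1520 and 1404 CPM were near the highest healthy sum of 1433 CPM, had 169 and 195 CPM of Tnf, against at most 42.6 CPM in healthy LSECs. Single markers were above the healthy range in these replicates too, with the monocyte receptor gene Ccr2 at 25.6 and 35.4 CPM (healthy maximum 20.9 CPM) and the macrophage gene Cd68 at 245 and 233 CPM (healthy maximum 112 CPM). Without replicates 1 and 2 of day 3, the log2 fold change of Tnf at day 3 was 2.44 (adjusted p = 0.00189), and the fall to day 7 had no call (-1.26, adjusted p = 0.0556). This alternative was added after the values had been seen. Replicates 1 and 2 held the highest levels of Tnf at day 3, so leaving them out makes both changes smaller in any case. The lost call of the fall therefore adds no support. At day 1 and day 7 every sample had a marker sum above all healthy samples. The part of monocytes, macrophages and neutrophils in the values of Tnf was not tested at any day.

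**Figure D3:**
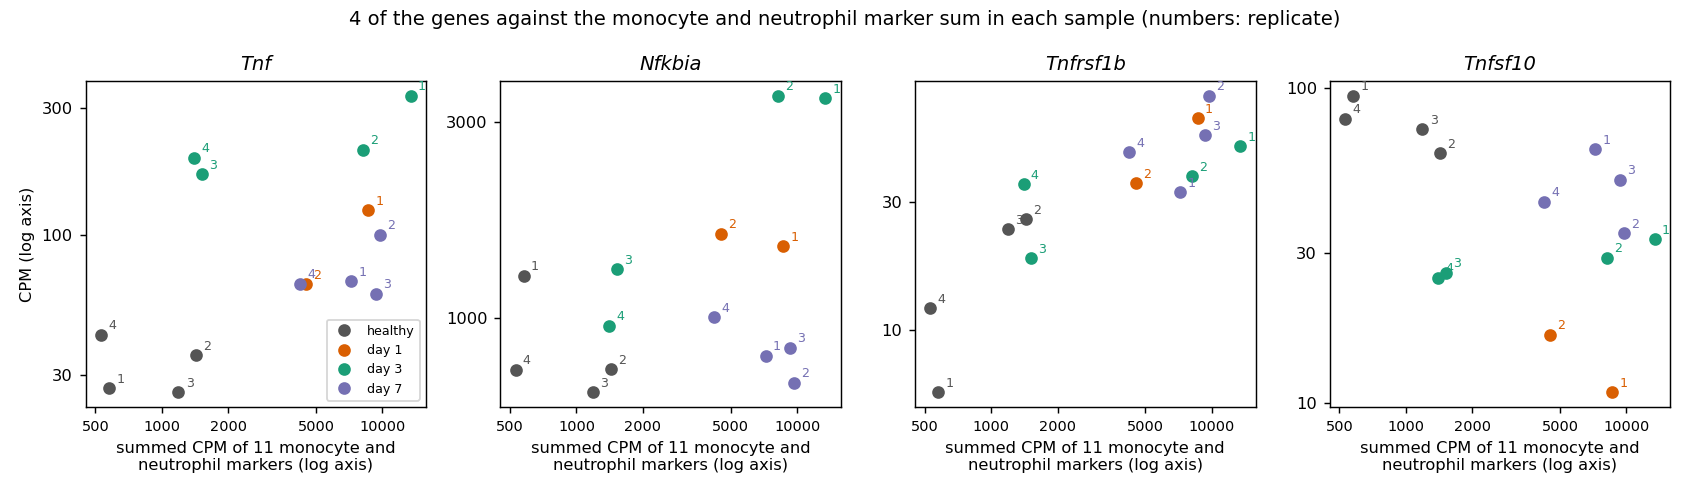
CPM of Tnf, Nfkbia, Tnfrsf1b and Tnfsf10 (y axes, log scale) against the summed CPM of 11 monocyte and neutrophil markers (x axes, log scale), with 1 point per sample, colored by group and numbered by replicate. Replicates 3 and 4 of day 3 have marker sums near the healthy samples and Tnf at 169 and 195 CPM, while the highest Nfkbia values, 3419 and 3465 CPM, belong to the day 3 replicates with the high marker sums.

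Tnfsf10 encodes TRAIL, a ligand that can start apoptosis through death receptors. It lies on chromosome 3 (27317028 to 27342427, plus strand). Its level was 94.5, 62.2, 74.1 and 79.9 CPM in healthy LSECs, 10.8 and 16.5 CPM at day 1, 33.2, 29.0, 26.0 and 25.0 CPM at day 3, and 64.1, 34.7, 51.2 and 43.5 CPM at day 7. Every sample of day 1 and day 3 was below every healthy sample, and the day 1 samples were the lowest of all. Tnfsf10 fell 5.69-fold at day 1 (log2 fold change -2.51, SE 0.30, adjusted p = 0.000463 in edgeR) and 2.75-fold at day 3 (-1.46, SE 0.22, adjusted p = 0.00271). Both calls held in all 22 alternatives, including each sample left out. At day 7 the log2 fold change was -0.68 (SE 0.21, adjusted p = 0.0952 in edgeR), with replicate 1 of day 7 inside the healthy range, and without that replicate it was -0.86 with a call (adjusted p = 0.0297). The day 3 samples were all above those of day 1, and the day 7 samples all above those of day 3, at differences of 1.05 (SE 0.28, adjusted p = 0.0638) and 0.77 (SE 0.22, adjusted p = 0.0945 in edgeR) that had no call. DESeq2 called both (adjusted p = 0.00391 and 0.0113), and without replicate 1 of day 7 edgeR called the first (0.96, adjusted p = 0.0496). The part of other cell types in these values was not tested.

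Of the 4 receptors, Fas alone had a call in any comparison. Tnfrsf1a (chromosome 6, 125349362 to 125362484, plus strand), which encodes TNFR1, was at 335, 401, 451 and 332 CPM in healthy LSECs, 571 and 521 CPM at day 1, 243, 262, 324 and 392 CPM at day 3, and 252, 260.0, 255 and 305 CPM at day 7. The day 1 samples were above and the day 7 samples below all healthy samples. No comparison with healthy LSECs gave a call, with log2 fold changes of 0.52 (SE 0.22) at day 1, -0.32 (SE 0.18) at day 3 and -0.50 (SE 0.18) at day 7 and adjusted p of 0.214, 0.333 and 0.133 in edgeR. The difference between day 3 and day 1 was -0.84 (SE 0.21, adjusted p = 0.0561 in edgeR). It was called by DESeq2 (adjusted p = 0.00731) and by edgeR without replicate 4 of day 3 (-1.04, adjusted p = 0.0188). That replicate had the highest level of Tnfrsf1a at day 3, so the latter call adds no support.

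Tnfrsf1b (chromosome 4, 145213463 to 145246870, minus strand), which encodes TNFR2, was at 5.87, 25.9, 23.7 and 12.1 CPM in healthy LSECs and thus spread over more than 4-fold there. It was at 61.2 and 35.2 CPM at day 1, 48.1, 37.3, 18.5 and 34.9 CPM at day 3, and 32.6, 74.3, 52.9 and 45.8 CPM at day 7. All samples of day 1 and day 7 were above all healthy samples, while day 3 overlapped with them. The log2 fold changes of 1.51 (SE 0.50), 1.04 (SE 0.43) and 1.61 (SE 0.44) had no call (adjusted p = 0.120, 0.171 and 0.0627 in edgeR). At day 7 a call was made by DESeq2 (adjusted p = 0.00735) and by edgeR without replicate 4 of day 3 or replicate 1 of day 7 (adjusted p = 0.0466 and 0.0412). TNFR2 is abundant on leukocytes, and the levels of Tnfrsf1b and the marker sum of monocytes and neutrophils were both lowest in replicates 1 and 4 of the healthy group, where Ptprc was at 39.0 and 36.9 CPM. Replicates 3 and 4 of day 3 had low marker sums too, 1520 and 1404 CPM, with Ptprc at 63.9 and 46.7 CPM. Their levels of Tnfrsf1b were 18.5 CPM, inside the healthy range, and 34.9 CPM, above it. The part of such cells in the values of Tnfrsf1b was not tested.

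Fas (chromosome 19, 34290666 to 34327772, plus strand) encodes the receptor of Fas ligand, a death receptor present on LSECs and hepatocytes. Its level was 167, 123, 127 and 114 CPM in healthy LSECs, 79.4 and 93.5 CPM at day 1, 77.2, 80.5, 33.8 and 22.2 CPM at day 3, and 91.4, 39.8, 58.5 and 54.2 CPM at day 7. All 10 samples after CCl4 were below all healthy samples. Fas fell 2.49-fold at day 3 (log2 fold change -1.31, SE 0.37, adjusted p = 0.0487 in edgeR). The call was lost without replicate 1, 2 or 3 of the healthy group or replicate 3 of day 3 (log2 fold changes of -1.35 to -1.18, adjusted p = 0.0538 to 0.124). Within day 3 the lowest levels were in replicates 3 and 4, those with the low marker sums, and without replicates 1 and 2 of day 3 the log2 fold change was -2.27 (adjusted p = 0.00389 in edgeR). That fit was chosen after the values had been seen and keeps only the lowest levels of day 3, so it adds no support. At day 1 the log2 fold change was -0.62 (SE 0.46, adjusted p = 0.553) and at day 7 -1.12 (SE 0.37, adjusted p = 0.108 in edgeR), and the latter had a call without replicate 4 of day 3 or replicate 1 of day 7 (-1.11 and -1.39, adjusted p = 0.0350 and 0.0395).

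Ltbr (chromosome 6, 125306571 to 125313885, minus strand) encodes the lymphotoxin beta receptor, which starts the p100 branch. Its level was 182, 202, 199.7 and 181 CPM in healthy LSECs, 199.9 and 204 CPM at day 1, 102, 102, 153 and 208 CPM at day 3, and 132, 115, 115 and 129.7 CPM at day 7. The samples of day 1 lay in or just above the healthy range and all samples of day 7 below it, and day 3 spanned both. The log2 fold changes of 0.08 (SE 0.25), -0.43 (SE 0.21) and -0.64 (SE 0.21) had no call (adjusted p = 0.932, 0.239 and 0.105 in edgeR). Without replicate 4 of day 3, which had the highest level of that day and the fewest detected genes, Ltbr was called lower at day 3 (-0.76, adjusted p = 0.0199) and at day 7 (-0.64, adjusted p = 0.0376 in edgeR). Leaving out the highest level lowers the mean of day 3 in any case, so the call at day 3 adds no support. Over all genes, the same fit called 3314 of 26443 at day 3 and 2166 at day 7. The main fit called 1915 and 846 of 26626.

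Of the inhibitors, Nfkbia (chromosome 12, 55489410 to 55492647, minus strand) encodes IkBα, and its promoter holds a single match in the sequence above. Its level was 1269, 752, 662 and 751 CPM in healthy LSECs, 1495 and 1605 CPM at day 1, 3419, 3465, 1317 and 959.5 CPM at day 3, and 812, 699, 849 and 1007 CPM at day 7. Replicates 1 and 2 of day 3 stood well above all other samples, and replicate 4 of day 3 lay inside the healthy range. Nfkbia rose 2.67-fold at day 3 (log2 fold change 1.42, SE 0.38, adjusted p = 0.0374 in edgeR). Replicates 1 and 2 of day 3 were also those with the high monocyte and neutrophil sums, and without both the log2 fold change was 0.39 (adjusted p = 0.332 in edgeR). That fit was chosen after the values had been seen. It leaves out the highest levels of Nfkbia, so the smaller change follows from the choice of samples and adds no support. The call was also lost when any of 9 single samples was left out, namely replicates 2, 3 or 4 of the healthy group, 1 or 2 of day 1, 1 or 2 of day 3, or 3 or 4 of day 7, with log2 fold changes of 1.06 to 1.36 and adjusted p of 0.0544 to 0.106. The part of leukocytes in this rise was not tested.

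At day 1, Nfkbia in both samples lay above all healthy samples, at a log2 fold change of 0.85 (SE 0.44) without a call (adjusted p = 0.344 in edgeR). At day 7 its log2 fold change was -0.03 (SE 0.37, adjusted p = 0.980). From day 3 to day 7 the difference was -1.44 (SE 0.38, adjusted p = 0.0747 in edgeR), which DESeq2 called (adjusted p = 0.00864) and edgeR called without replicate 4 of day 3 (-1.59, adjusted p = 0.0131). That replicate had the lowest level of Nfkbia at day 3, so the latter call adds no support.

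Tnfaip3 (chromosome 10, 19000910 to 19015657, minus strand) encodes A20, and the window of its first RefSeq start holds matches at both ends of the printed sequence. Its level was 161, 209, 137 and 118 CPM in healthy LSECs, 269 and 206 CPM at day 1, 249, 325, 249.7 and 338 CPM at day 3, and 120.2, 159, 194 and 241 CPM at day 7. All day 3 samples were above all healthy and all day 7 samples. Tnfaip3 rose 1.86-fold at day 3 (log2 fold change 0.90, SE 0.24, adjusted p = 0.0380 in edgeR). Without replicates 1 and 2 of day 3, a fit chosen after the values had been seen, the log2 fold change was 0.89, just outside the threshold (adjusted p = 0.0637 in edgeR). The call was lost in 11 of 14 cases in which a single sample was left out, all but replicate 2 of the healthy group and replicates 1 and 2 of day 7, with log2 fold changes of 0.67 to 0.91 and adjusted p of 0.0553 to 0.154. At day 1 and day 7 the log2 fold changes were 0.60 (SE 0.28, adjusted p = 0.290) and 0.19 (SE 0.24, adjusted p = 0.686 in edgeR).

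Nfkb2 (chromosome 19, 46304320 to 46312385, plus strand) encodes p100 and its product p52. Its exons share 299 bases with the gene Psd on the opposite strand and 531 bases with AC114539.1, which is not among the genes counted, and whether counting used the strand is not given in the sources used here, so its counts are uncertain to that extent. Its level was 42.3, 44.9, 44.4 and 40.8 CPM in healthy LSECs, 35.6 and 43.1 CPM at day 1, 39.4, 48.0, 65.0 and 136 CPM at day 3, and 33.0, 51.8, 64.9 and 70.7 CPM at day 7. The healthy samples were narrow and the later groups wide, and replicate 4 of day 3, with the fewest detected genes, stood far above the rest. The log2 fold changes of -0.13 (SE 0.41), 0.74 (SE 0.34) and 0.35 (SE 0.34) had no call (adjusted p = 0.932, 0.215 and 0.583 in edgeR), and without replicate 4 of day 3 the change at day 3 was 0.16.

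Relb (chromosome 7, 19606217 to 19629438, minus strand) encodes the partner of p52. Its level was 36.6, 37.5, 31.5 and 36.6 CPM in healthy LSECs, 24.7 and 27.7 CPM at day 1, 37.0, 45.3, 53.9 and 54.4 CPM at day 3, and 32.9, 35.4, 41.2 and 47.5 CPM at day 7. Both day 1 samples were below all healthy samples, and the day 3 samples were all above those of day 1. The log2 fold changes of -0.44 (SE 0.21), 0.42 (SE 0.17) and 0.14 (SE 0.17) against healthy LSECs had no call (adjusted p = 0.304, 0.159 and 0.679 in edgeR). The difference between day 3 and day 1 was 0.86 (SE 0.22, adjusted p = 0.0536 in edgeR), and it was called by DESeq2 (adjusted p = 0.000766) and by edgeR without replicate 1 of day 3 (0.93, adjusted p = 0.0417). In the day 3 replicates with low marker sums, 3 and 4, Nfkb2 and Relb were at their highest levels of that day, and without replicates 1 and 2 both were called higher at day 3 (1.19 with adjusted p = 0.0306, and 0.58 with adjusted p = 0.0457 in edgeR). That fit was chosen after the values had been seen. It leaves out the lowest levels of day 3 of both genes, so these calls add no support. For Nfkb2 it keeps replicate 3 (65.0 CPM) and replicate 4 (136 CPM), the sample with the fewest detected genes. The count of called genes at day 3 in that fit was 5 of 10, with Tnf, Fas, Tnfsf10, Nfkb2 and Relb in place of Tnf, Fas, Tnfsf10, Tnfaip3 and Nfkbia. Over all genes, the same fit called 2417 of 24856 at day 3, and the main fit 1915 of 26626.

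Between day 3 and day 1, none of the 10 genes was called by edgeR, where 2.54% of all genes were called. An unadjusted p under 0.05 was reached by 4 of the 10, Tnf, Tnfrsf1a, Tnfsf10 and Relb, and DESeq2 called 4 of the 10. Of all 26626 genes tested, 4198 had an unadjusted p under 0.05, and DESeq2 called 2274.

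**Figure D4:**
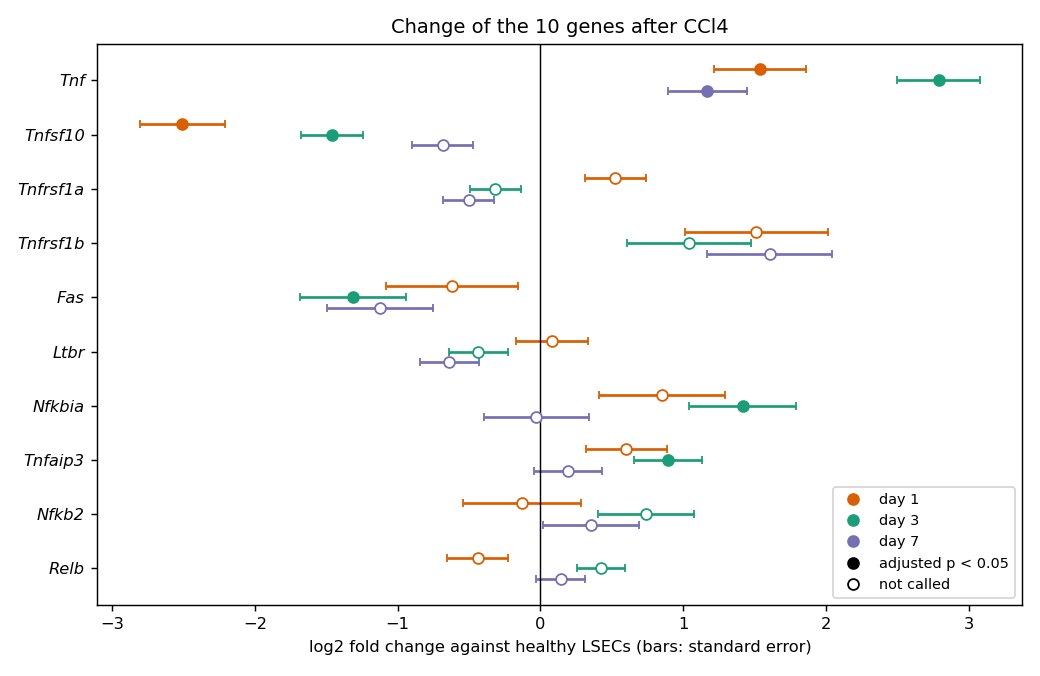
Log2 fold change against healthy LSECs of the 10 genes (x axis; points are fitted values, bars standard errors) at day 1, day 3 and day 7, with filled points for an adjusted p under 0.05 in edgeR and open points for no call. The filled points are Tnf at all days, Tnfsf10 at days 1 and 3, and Fas, Nfkbia and Tnfaip3 at day 3.

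The other genes of the pathway were taken from 6 lists of 105 genes, of which 104 were tested (Cd70 was not). At day 1, 12 of the 104 were called, 11 higher and 1 lower (11.5%, against the 4.06% of all genes). At day 3, 22 were called, 20 higher and 2 lower (21.2%, against 7.19%), and at day 7, 6 were called, all higher (5.77%, against 3.18%). The shares over all genes depend on which genes are counted. With at least 10 counts required in every sample, 1323, 2374 and 1133 of 16311 genes were called at days 1, 3 and 7. The lists were not compared with other genes of like level. The median log2 fold change of the 104 genes was 0.12, 0.28 and 0.11 at days 1, 3 and 7, beside -0.03, 0.18 and 0.02 for all genes. Between day 3 and day 1, 4 were called, 1 higher and 3 lower (3.85%, against 2.54%), and from day 3 to day 7, 8 were called, all lower (7.69%, against 1.77%). The count at day 1 was 3 without replicate 1 of day 1 and 6 without replicate 2 of day 1, fits that hold 1 sample of that day, and 7 without replicate 4 of the healthy group.

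Of the 15 ligands tested, 1 was called at day 1 and 1 at day 3, both higher (6.67% each, against 4.06 and 7.19% of all genes). At day 1 this was Tnfsf14 (LIGHT, a ligand of the lymphotoxin beta receptor), which was at 0.110 to 1.44 CPM in healthy LSECs and at 7.89 and 3.64 CPM at day 1 (log2 fold change 3.31, SE 0.85, adjusted p = 0.0456 in edgeR). At day 3 it was Tnfsf9 (4-1BB ligand), which was at 18.5 to 35.9 CPM in healthy LSECs and at 187, 133, 59.7 and 62.6 CPM at day 3 (2.08, SE 0.42, adjusted p = 0.0117), and which fell again to day 7 (-1.80, SE 0.42, adjusted p = 0.0476). The higher pair of day 3 values belonged to replicates 1 and 2, those with high monocyte and neutrophil sums. At day 7 no ligand was called by edgeR or DESeq2. An unadjusted p under 0.05 was reached there by 2 of the 15, and by 5609 of all 26626 genes. Between day 3 and day 1 edgeR called no ligand, 2 had an unadjusted p under 0.05, and DESeq2 called 2. Over all genes the latter counts were 4198 and 2274.

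The receptors held the largest called rise of the 104 genes against healthy LSECs. Of 24 tested, 5 rose at day 1, 6 at day 3 and 2 at day 7, and none fell at these days. The shares called were 20.8, 25.0 and 8.33%, against 4.06, 7.19 and 3.18% of all genes tested. Tnfrsf9 (4-1BB, a costimulatory receptor of lymphocytes that endothelial cells can also carry) was at 0.539, 0.728, 0.926 and 0.172 CPM in healthy LSECs, 84.1 and 47.8 CPM at day 1, 3.77, 5.70, 2.56 and 1.74 CPM at day 3, and 0.657 to 1.27 CPM at day 7. Its log2 fold change was 6.80 at day 1 (SE 0.62, adjusted p = 6.16e-05 in edgeR) and 2.54 at day 3 (SE 0.49, adjusted p = 0.00909), and from day 1 to day 3 it fell by 4.26 on the log2 scale (SE 0.56, adjusted p = 0.00274). Thus Tnfrsf9 was high in both day 1 samples and lower by day 3, whereas Tnf was highest at day 3.

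Tnfrsf12a (the TWEAK receptor Fn14) was at 7.42 to 14.1 CPM in healthy LSECs, rose by 3.05 at day 1 (SE 0.39, adjusted p = 0.000761 in edgeR, 64.7 and 104 CPM), was still higher at day 3 (19.9 to 43.2 CPM) and fell from day 3 to day 7 (-1.87, SE 0.34, adjusted p = 0.0180). Tnfrsf11b (osteoprotegerin, a decoy receptor that binds RANKL and TRAIL) was at 1.11 to 2.69 CPM in healthy LSECs and at 2.00 and 2.72 CPM at day 1. It rose by 3.32 at day 3 (SE 0.50, adjusted p = 0.00273 in edgeR, 9.96 to 27.9 CPM) and by 3.06 at day 7 (SE 0.50, adjusted p = 0.00830, 4.66 to 26.4 CPM), and it was higher at day 3 than at day 1 (2.98, SE 0.66, adjusted p = 0.0310). Most of the stellate cell markers were also higher at days 3 and 7, and their part in the values of Tnfrsf11b was not tested. Relt, an orphan receptor of the family, rose by 1.56 at day 1 and 1.23 at day 3 (SE 0.28 and 0.24, adjusted p = 0.00776 and 0.0104 in edgeR).

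Tnfrsf8 (CD30) was called at day 7 on few reads, with counts of 0, 0, 6 and 0 in healthy LSECs and of 54, 87, 14 and 18 at day 7. The call of Tnfrsf23 at day 1 is uncertain, since it and Tnfrsf22 and Tnfrsf26 are close copies of each other.

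Of 25 adaptors, kinases and death effectors, 1 rose at day 1, 1 rose and 1 fell at day 3, and 1 rose at day 7. These shares of 4.0, 8.0 and 4.0% were near the 4.06, 7.19 and 3.18% of all genes tested. Ripk3, a kinase of necroptosis, rose at day 1 from 28.3 to 41.9 CPM in healthy LSECs to 74.3 and 67.0 CPM (log2 fold change 0.93, SE 0.21, adjusted p = 0.0250 in edgeR) and was lower at day 7 than at day 3 (-1.07, SE 0.18, adjusted p = 0.0130). Ikbke, a kinase related to the IkB kinases, rose by 1.63 at day 3 and 1.79 at day 7 (SE 0.37 and 0.37, adjusted p = 0.0177 and 0.0216). Chuk, which encodes IKKα, the kinase that drives p100 processing, fell by 0.82 on the log2 scale at day 3 (SE 0.17, adjusted p = 0.0142 in edgeR), from 47.2 to 61.0 CPM in healthy LSECs to 25.2 to 41.4 CPM. Tbk1 was lower at day 3 than at day 1 (-0.81, SE 0.19, adjusted p = 0.0349).

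Among the other 8 subunits and IkB proteins, edgeR called none at day 1 or day 7, and DESeq2 called none either. An unadjusted p under 0.05 was reached by 1 of the 8 at day 1 and 2 at day 7, and by 4759 and 5609 of all 26626 genes. At day 3, 2 of 8 rose (25.0%, against 7.19% of all genes). They were Nfkbid (0.82, SE 0.20, adjusted p = 0.0248 in edgeR) and Bcl3 (0.87, SE 0.21, adjusted p = 0.0249), which encode atypical IkB proteins of the nucleus. Nfkbid was at 61.2 to 90.0 CPM in healthy LSECs and 109 to 159 CPM at day 3, and Bcl3 at 30.7 to 45.0 and 59.9 to 84.6 CPM. The subunit genes Nfkb1 and Rela had log2 fold changes of -0.04 and -0.36 at day 3 (adjusted p = 0.921 and 0.396), given here because they encode the main dimer that IkBα holds. Nfkbib, which encodes IkBβ, was lower at day 7 than at day 3 (-0.85, SE 0.19, adjusted p = 0.0443 in edgeR).

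Of 13 genes of ubiquitin editing and feedback, 1, 2 and 1 were called at days 1, 3 and 7. The shares were 7.69, 15.4 and 7.69%, against 4.06, 7.19 and 3.18% of all genes tested. Tnip3, which encodes an A20-binding inhibitor of NF-kB, was called at all 3 days. It was at 2.52, 2.88, 1.64 and 1.17 CPM in healthy LSECs, 8.68 and 4.96 CPM at day 1, 36.2, 17.9, 17.3 and 24.3 CPM at day 3, and 28.2, 19.9, 15.9 and 13.9 CPM at day 7. All samples after CCl4 were above all healthy samples. The log2 fold changes were 1.73 (SE 0.41, adjusted p = 0.0296), 3.54 (SE 0.38, adjusted p = 0.000678) and 3.25 (SE 0.38, adjusted p = 0.00179 in edgeR). Rnf11, a partner of A20, was the other gene called at day 3 and fell by 0.57 on the log2 scale (SE 0.13, adjusted p = 0.0218), with 111 to 116 CPM in healthy LSECs and 65.7 to 85.8 CPM at day 3. Rnf11 was also lower at day 3 than at day 1 (-0.96, SE 0.16, adjusted p = 0.00888).

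Of 19 known NF-kB target genes, 3 rose and 1 fell at day 1, 9 rose and none fell at day 3, and 2 rose and none fell at day 7. The shares called were 21.1, 47.4 and 10.5%, against 4.06, 7.19 and 3.18% of all genes tested. Ptgs2, which encodes the prostaglandin synthase COX-2, was at 1.43 to 5.25 CPM in healthy LSECs and rose by 3.35 at day 1, 3.35 at day 3 and 2.73 at day 7 (SE 0.52, 0.48 and 0.46, adjusted p = 0.00276, 0.00211 and 0.00961 in edgeR). Sele, which encodes the endothelial adhesion molecule E-selectin, was at 13.3, 26.4, 13.1 and 19.1 CPM in healthy LSECs, 45.0 and 79.6 CPM at day 1, 138, 237, 145 and 119 CPM at day 3, and 67.5, 35.4, 31.7 and 65.9 CPM at day 7. Like Tnf, Sele was above the healthy samples in every sample after CCl4 and highest in all day 3 samples. It rose by 1.79, 3.15 and 1.48 at days 1, 3 and 7 (SE 0.39, 0.36 and 0.34, adjusted p = 0.0193, 0.000810 and 0.0337) and fell from day 3 to day 7 (-1.67, SE 0.34, adjusted p = 0.0289 in edgeR).

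Cxcl2, a neutrophil chemokine, rose by 2.88 at day 1 and 2.32 at day 3 (SE 0.43 and 0.38, adjusted p = 0.00219 and 0.00433 in edgeR). Irf1 was the target called lower at day 1, at 108 and 135 CPM against 402 to 635 CPM in healthy LSECs (-2.12, SE 0.42, adjusted p = 0.0112). The other 6 targets that rose at day 3 were Vcam1, Icam1, Ccl2, Cxcl1, Gadd45b and Plau, at log2 fold changes of 1.18 to 3.21. Of these, Ccl2 was at 882 and 1388 CPM in replicates 1 and 2 of day 3 and at 224 and 163 CPM in replicates 3 and 4, while Icam1 was lowest in replicate 1. From day 3 to day 7, 4 of 19 targets were called, all lower (21.1%, against 1.77% of all genes). They were Ccl2 (-3.75, SE 0.60, adjusted p = 0.0108 in edgeR), Plau (-1.67, SE 0.32, adjusted p = 0.0222), Cxcl1 (-1.76, SE 0.36, adjusted p = 0.0289) and Sele. Between day 3 and day 1 edgeR called no target, 11 of 19 had an unadjusted p under 0.05, and DESeq2 called 8. Over all 26626 genes the latter counts were 4198 and 2274.

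**Figure D5:**
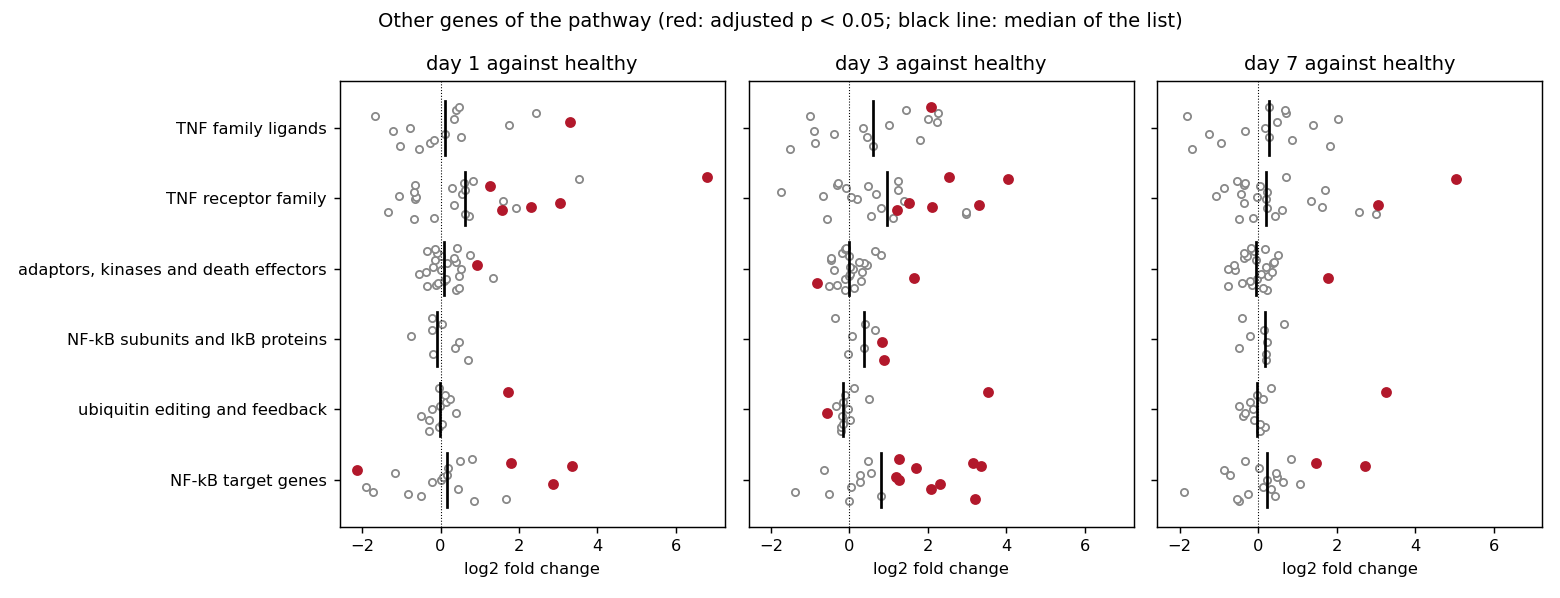
Log2 fold change against healthy LSECs (x axis) of each of the 104 other pathway genes at day 1, day 3 and day 7, by list, with called genes (adjusted p under 0.05 in edgeR) in red, others as open circles, and the median of each list as a black line. At day 3, 9 of 19 NF-kB target genes are red and all lie to the right of 0, and at day 7, 6 of 104 genes are red. Over all genes tested, 7.19% were called at day 3 and 3.18% at day 7.

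The same promoter search found a match in 23 of 81 pathway genes with a window (28.4%, against 9.55% of all genes), among them 9 of 15 target genes, 4 of 6 subunits and IkB proteins, 4 of 9 feedback genes, 3 of 19 receptors, 2 of 21 adaptors and kinases, and 1 of 11 ligands. The target list was drawn up from genes known as NF-kB targets, so its share is not independent of the motif. The same holds for the IkB and feedback lists, which were drawn up as genes of the NF-kB response. Among the called genes with a match were Tnip3, Tnfrsf9, Nfkbid, Bcl3, Cxcl1, Cxcl2 and Irf1.

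The genes whose levels ran closest to those of each of the 10 were found among 15602 genes with a mean of at least 1 CPM, by the root mean square (RMS) difference of centered log2 CPM over the 14 samples. For Tnf the closest were Aprt, Plpp2 and 4930430E12Rik, at RMS differences of 0.44 to 0.49, where Tnf itself had an SD of 1.15. For Tnfrsf1b they were Csf2ra, Mpeg1 and Nfam1 (0.25 to 0.29, SD 0.97), which are known as genes of myeloid cells. For Tnfsf10 they were Map2k6, Cd300lg and Sh3d21 (0.23 to 0.28, SD 0.91), and for Fas Tcim, Plet1os and Cd59a (0.22 to 0.28, SD 0.81). For Tnfaip3 the closest gene was Bcl3, at 0.20 with an SD of 0.49, followed by Tfrc and Zbed4. For Nfkbia they were Csrp2, Lgals1 and Gm8894 (0.32 to 0.33, SD 0.78), and for Nfkb2 Stk35, 2900026A02Rik and Zfp142 (0.16 to 0.18, SD 0.52). Tnfrsf1a, Relb and Ltbr varied least, with SDs of 0.40, 0.33 and 0.40, and their closest genes were Pisd, Rmnd1 and Cmtm6.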

How the data were processed

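RNA of sorted LSECs from 14 samples in 4 groups was measured. The authors prepared libraries with a SMART-seq kit, trimmed and checked the reads, aligned these to GRCm38.p6 using STAR, ran StringTie for assembly, and deposited raw read counts for each gene. The annotation release and the use of strand are not given in the sources used here, and the sequencing is described both as paired-end and as single-end. Library preparation amplifies cDNA without molecular identifiers, so total counts (46401496 to 103912264) describe counting error only. At these depths a floor of 3 counts corresponds to 0.0299 to 0.0661 CPM. No column was left unused.

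Gene names, positions and exon lengths came from GENCODE vM21, which held 54495 of 54524 genes, and promoter windows from RefSeq. Counts were filtered with filterByExpr (minimum count 10, minimum total 15), scaled by TMM and tested with edgeR 4.0.16 (R 4.3.3) in 1 quasi-likelihood model of 4 group means, with Benjamini-Hochberg adjustment over 26626 genes. The SE was taken from the log2 fold change and its F statistic, as the size of the former over the root of the latter. Log2 CPM used a prior count of 2. The fit was tested on simulated data. The alternatives were DESeq2 1.42.0, other scalings, filters, thresholds and samples, and a block on the replicate number.

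The 10 genes and all lists were chosen with earlier results of these data known. Named were the 10 genes, up to 3 called genes of each list, direction and comparison by smallest p, the 3 closest genes of each, and the called count and defining genes of each marker list. Tnfrsf23, Nfkb1, Rela, Tnfrsf22, Tnfrsf26, Cd70, the other targets called at day 3, and the later values of genes named for another comparison are named beyond that rule, after their values were seen. Each p-value measures the spread between samples that the labels give as separate.

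Of the 12 LSEC markers, 2 were called higher and 2 lower at day 1, and 1 higher and 2 lower at day 3. Of the marker lists not described with the results, summed levels in healthy LSECs and after CCl4 were 352 to 2239 and 967 to 2706 CPM for 11 Kupffer cell and macrophage markers (Cd68 called higher at days 3 and 7). They were 149 to 6591 and 23.9 to 5471 CPM for 7 hepatocyte markers (Tf matched no gene name), 24.2 to 136 and 9.24 to 207 CPM for 9 T and NK cell markers, 24.4 to 131 and 20.6 to 163 CPM for 4 B cell markers, and 7.51 to 19.1 and 7.98 to 31.2 CPM for 4 cholangiocyte markers, all without calls against healthy LSECs. Of 10 immediate early genes, 1 was called lower at day 1, 3 at day 3 and 1 at day 7. None of the lists' defining markers S100a8, S100a9, Lyz2, Ccr2, Csf3r, Adgre1, Clec4f and Ptprc was at 0 in any sample.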

Additional observations from a re-analysis of the deposited data

Results flagged for a closer look

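Of 30 combinations of a gene and a group of 4 samples, 2 held a sample far from the others, and chance flags about 1 in 20. For Relb in healthy LSECs, replicate 3 (31.5 CPM) was separated from the nearest other sample by 0.867 of the group's range on the log2 scale, although the range was narrow (31.5 to 37.5 CPM). For Tnfrsf1a at day 7, replicate 4 (305 CPM) was separated by 0.840 of the range from replicates at 252 to 260.0 CPM. Both exceed Dixon's critical value for groups of 4 samples.

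Tnf was marked because the time points differed in a direct test: its change against healthy LSECs was smaller at day 7 than at day 3, with a log2 difference of -1.62 (SE 0.28, adjusted p = 0.0140 in edgeR). In all 4 samples of day 7 the level was below all 4 samples of day 3. It was the only one among 20 tested differences between successive time points of the 10 genes to be called.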

How the results depend on the processing

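For the count of the 10 genes called, and of pathway genes called, the following settings moved the main values by more than 1.5 times. At day 1 (main 2 and 12), the replicate block gave 1 and 7, DESeq2 gave 20 pathway genes, and leaving out 1 sample gave 1 to 2 and 3 to 14. At day 3 (5 and 22), testing without a filter gave 3, the replicate block 3 and the fit of only 2 groups 2 of the 10 genes, and leaving out 1 sample gave 2 to 5 and 15 to 28. The 5 became 2 without replicate 3 of the healthy group, and 3 without any of the other healthy samples, either day 1 sample, replicate 1, 2 or 3 of day 3, or replicate 3 or 4 of day 7.

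At day 7 (1 and 6), DESeq2 gave 2 and 14, testing without a filter gave 0, a minimum of 10 counts in every sample 2, the replicate block 0, only 2 groups 5 and 17, the fit without replicates 1 and 2 of day 3 (chosen after seeing the data) 4 and 12, a threshold of 0.1 3 and 11, and leaving out 1 sample 0 to 4 and 3 to 14. The pathway count was 3 without healthy replicate 1 or day 7 replicate 2, 10 without day 7 replicate 1 and 14 without day 3 replicate 4, and the latter 2 also gave 4 of the 10 genes. Between day 3 and day 1 (0 and 4), DESeq2 gave 4 and 19, RLE size factors 1, the count minimum 3 and 7, only 2 groups 1 pathway gene, the fit without replicates 1 and 2 of day 3 3 and 7, a threshold of 0.1 4 and 11, and leaving out 1 sample 0 to 1 and 1 to 7 (7 without day 3 replicate 4, 2 without day 3 replicate 1, 1 without either day 1 sample). Between day 7 and day 3 (1 and 8), DESeq2 gave 3 and 15, testing without a filter 5 pathway genes, the count minimum 2 of the 10 genes, the replicate block 4 pathway genes, only 2 groups 0 and 0, the fit without replicates 1 and 2 of day 3 0 of the 10 genes, a threshold of 0.1 3 of the 10 genes, and leaving out 1 sample 0 to 2 and 0 to 13 (13 without day 3 replicate 4, and 4 or fewer without healthy replicate 4 or any other day 1, day 3 or day 7 sample). Counts over all genes moved as well. Without replicate 4 of day 3, edgeR called 3314 of 26443 genes at day 3 and 2166 at day 7, against 1915 and 846 of 26626 in the main fit. The same fit called 915 between day 3 and day 1 and 1652 between day 7 and day 3, against 676 and 472. DESeq2 called 2699, 3625 and 2599 of 26626 genes at days 1, 3 and 7. It called 2274 between day 3 and day 1, and 1702 between day 7 and day 3. The causes were not tested.

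The sign of small uncalled changes turned in some settings. Nfkb2 at day 1 was 0.12 with the replicate block. Nfkbia at day 7 was 0.0171 with DESeq2 and 0.0171 with RLE size factors, 0.0513 by library size only, 0.0716 with the count minimum, 0.0622 with the replicate block, and -0.13 to 0.22 when 1 sample was left out. Nfkbia between day 3 and day 1 was -0.45 without replicates 1 and 2 of day 3, which held its highest levels. From day 3 to day 7, Tnfrsf1a ranged from -0.23 to 0.0389, Nfkb2 from -0.53 to 0.19 and Ltbr from -0.31 to 0.12 when 1 sample was left out, with the positive values without replicate 4 of day 3. Over 22 alternatives, the calls of Tnfsf10 at days 1 and 3 and of Tnf at day 3 held in all 22, Tnf at day 1 in 20, Fas at day 3 in 17, Tnf from day 3 to day 7 in 16, Tnf at day 7 in 14, Nfkbia at day 3 in 9 and Tnfaip3 at day 3 in 7. The median log2 fold change of all genes at day 3, 0.18, was 0.00 with the count minimum and -0.01 with only 2 groups.

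The replicate numbers mark no shared origin in the labels: deviations of samples with the same number correlated at -0.23 to 0.10 (18 pairs), those with other numbers at -0.26 to 0.24 (54 pairs). With the replicate block, Tnf at day 1 (1.36, adjusted p = 0.0782) and day 7 (1.16, adjusted p = 0.0589) and Tnfaip3 and Nfkbia at day 3 (adjusted p = 0.0771 and 0.0618) had no call. The limits are 2 samples at day 1, a higher mitochondrial share at day 7, and few detected genes in replicate 4 of day 3. Monocyte and neutrophil marker sums were high at day 1, in replicates 1 and 2 of day 3 and, mostly from Lyz2, at day 7. Stellate cell markers were higher at days 3 and 7, and the LSEC marker sum was lower in every sample after CCl4, although single LSEC markers went both ways. The part of these limits in the results was not tested. Depth was not limiting for the 10 genes.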
